A study of Homo sapiens with 8 samples.

Results

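The metallothionein genes are described here in SW1990 cells, an established human pancreatic adenocarcinoma line, together with MTF1 and SLC30A1. The set holds 10 of the 38637 genes listed in the deposited table: the metallothioneins MT1E, MT1F, MT1G, MT1H, MT1M, MT1X, MT2A and MT4, their regulator MTF1 and the zinc exporter SLC30A1. The genes were chosen by name with earlier results for the same libraries known, among them the counts of MT4 after GSK-LSD1, so the values of GSK-LSD1 against Vehicle are given as a description of the members and carry no test. Expression was measured by RNA-seq in 8 libraries from 4 groups of 2. EBF2-OE cells overexpress the transcription factor EBF2, and Vector cells carry the empty construct as their control. GSK-LSD1 inhibits the histone demethylase KDM1A and was given at 2000 µM according to the sample labels, with the Vehicle cells as its control. All groups are the same line, the labels do not say whether the libraries came from separate cultures, and the p-values therefore measure only the spread between these libraries. Libraries of Vector and of EBF2-OE bear the numbers 2 and 3, and those of Vehicle and of GSK-LSD1 the numbers 1 and 2, with no meaning given.

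Metallothioneins are small cysteine-rich proteins that bind zinc and copper and buffer cells against heavy metals and oxidants. Their transcription rises with free zinc through MTF1, a zinc-finger factor that binds metal response elements in their promoters, and several of them also respond to glucocorticoids. MT2A and the MT1 genes are used in many tissues, MT4 is known from stratified squamous epithelia, and SLC30A1 (ZnT1) moves zinc out of the cell across the plasma membrane and is itself a target of MTF1.

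The 8 metallothionein genes lie within 119.1 kb of chromosome 16 (hg38, 56565073 to 56684196), with MT4 at one end and MT1X at the other. MTF1 (37809570 to 37859614) and SLC30A1 (211571568 to 211579161) are on the minus strand of chromosome 1. No other gene listed in the table overlapped a member on either strand. The upstream sequences below are shown because metallothionein promoters are known to respond to zinc through metal response elements. They are the 250 bases before the RefSeq transcription start (GRCh38.p14), outside the transcript, read on the strand of the gene. Capitals mark each copy of the core TGCACNC or TGCGCNC on either strand, and a copy on the opposite strand appears as its reverse complement. MT2A is the most abundant member (chr16:56608334-56608583, plus strand), MT1X varied most between libraries of 1 group (chr16:56682220-56682469, plus strand), MT4 stood out after GSK-LSD1 (chr16:56564823-56565072, plus strand), MT1H had no count in any library (chr16:56669564-56669813, plus strand) and SLC30A1 is the exporter (chr1:211579162-211579411, minus strand).
MT2A: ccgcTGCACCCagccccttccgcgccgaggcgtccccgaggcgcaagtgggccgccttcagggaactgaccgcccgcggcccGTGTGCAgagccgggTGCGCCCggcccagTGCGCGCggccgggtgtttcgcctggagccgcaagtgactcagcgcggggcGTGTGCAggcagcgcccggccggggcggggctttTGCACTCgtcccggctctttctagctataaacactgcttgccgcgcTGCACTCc
MT1X: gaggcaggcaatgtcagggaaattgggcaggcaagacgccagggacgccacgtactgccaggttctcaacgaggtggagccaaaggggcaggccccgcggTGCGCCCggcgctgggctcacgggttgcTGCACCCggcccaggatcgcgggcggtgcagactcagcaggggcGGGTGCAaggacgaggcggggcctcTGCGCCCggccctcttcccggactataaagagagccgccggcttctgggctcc
MT4: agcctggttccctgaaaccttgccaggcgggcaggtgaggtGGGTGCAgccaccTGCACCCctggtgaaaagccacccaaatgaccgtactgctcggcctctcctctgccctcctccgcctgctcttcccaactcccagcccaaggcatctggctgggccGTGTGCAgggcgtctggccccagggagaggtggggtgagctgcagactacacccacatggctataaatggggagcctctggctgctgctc
MT1H: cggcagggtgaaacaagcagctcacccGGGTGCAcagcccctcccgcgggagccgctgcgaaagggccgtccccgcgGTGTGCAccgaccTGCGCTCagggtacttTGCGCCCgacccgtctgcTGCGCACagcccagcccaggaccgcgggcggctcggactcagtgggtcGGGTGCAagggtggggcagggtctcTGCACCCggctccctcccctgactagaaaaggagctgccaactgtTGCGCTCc
SLC30A1: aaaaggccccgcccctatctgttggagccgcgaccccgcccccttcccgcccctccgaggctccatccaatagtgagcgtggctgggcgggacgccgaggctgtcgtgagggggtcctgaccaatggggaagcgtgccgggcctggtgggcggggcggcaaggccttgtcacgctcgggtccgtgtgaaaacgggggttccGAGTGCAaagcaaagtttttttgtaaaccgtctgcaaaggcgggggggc

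The core occurred 7 times upstream of MT2A, 8 times upstream of MT1H, 4 times upstream of MT1X, 3 times upstream of MT4, 1 time upstream of SLC30A1 and 0 times upstream of MTF1. Of 35114 promoters of the same length, 24.8% held at least 1 copy, 1.58% at least 3, 0.37% at least 4 and 0.12% at least 5. The number of copies did not order the members by level, since MT1H had the most copies and no count. A TATAAA motif, searched on both strands, began 29 bases before the start of MT2A and MT4 and 30 bases before that of MT1X, and 10.72% of all promoters held one. MT2A alone of the 6 members with a sequence had the AP-1 motif TGANTCA, 104 bases before its start, against 6.57% of all promoters. RefSeq promoters were matched for 6 of the 10 members, and MT1E, MT1F, MT1G and MT1M had no entry in the table used. A motif match is a description of letters in this window and shows no binding.

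**Figure D1:**
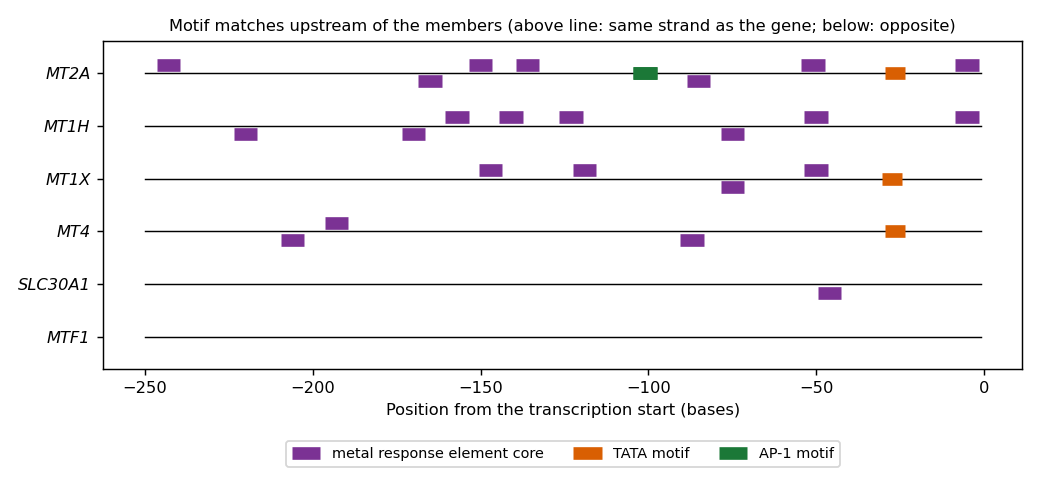
Matches of the metal response element core, the TATA motif and the AP-1 motif in the 250 bases upstream of 6 members, by position from the transcription start. MT1H and MT2A carry the most cores, with 8 and 7, and MTF1 carries 0.

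The libraries held 20453362 to 27054876 counts on genes, and the 2 libraries of every group differed by more than counting noise. EBF2 had 28 counts in both Vector libraries, 5818 in EBF2-OE 2 and 90100 in EBF2-OE 3, so the overexpression was very unequal, and 24 to 40 counts in the others. The ductal epithelial markers summed to 3872 to 6444 TPM (counts divided by the listed gene length and rescaled to the library, the unit that allows levels of different genes to be compared). This sum came from KRT8, KRT18 and MUC1, of which MUC1 was the lowest at 123.5 to 192.6 TPM. The other 3 of the 6 were near 0: KRT19 had 0 to 21 counts, EPCAM 4 to 20 and CDH1 7 to 57. Of the defining markers of the labelled cell type, these 3 were thus nearly absent. Acinar markers summed to 0 to 1.16 TPM. Fibroblast, blood and immune, and endothelial markers summed to 38.0 to 56.3, 11.4 to 31.0 and 0.503 to 5.02 TPM. In bulk RNA, fewer cells with a transcript and less of it per cell cannot be told apart.

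MT2A made up most of the metallothionein RNA in every library. Its level was 2252 and 1688 TPM in Vector 2 and 3, 2443 and 1368 TPM in EBF2-OE 2 and 3, 1467 and 1618 TPM in Vehicle 1 and 2, and 1693 and 1660 TPM in GSK-LSD1 1 and 2. It ranked between 48 and 107 among all genes by TPM and held 81.14% to 87.65% of the TPM of the 8 metallothioneins. MT1E and MT1X came next. MT1E lay between 126.4 and 236.2 TPM and MT1X between 80.07 and 289.4 TPM, so that their ranges overlapped and their order was not the same in all libraries. MT1X was above MT1E in Vector 2 (284.5 against 236.2 TPM) and in EBF2-OE 2 (289.4 against 219.6 TPM), and below it in the other 6 libraries. In counts MT1E was above MT1X in every library, with 27.8 to 71.4 MT1X counts for each 100 MT1E counts. Their order in TPM thus rests on the listed lengths, 746 bases for MT1E and 404 bases for MT1X. SLC30A1 followed at 20.95 to 36.72 TPM and MTF1 at 5.64 to 9.929 TPM, with no overlap between them. MT4 was low outside GSK-LSD1, at 0.7706 to 3.287 TPM.

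**Figure D2:**
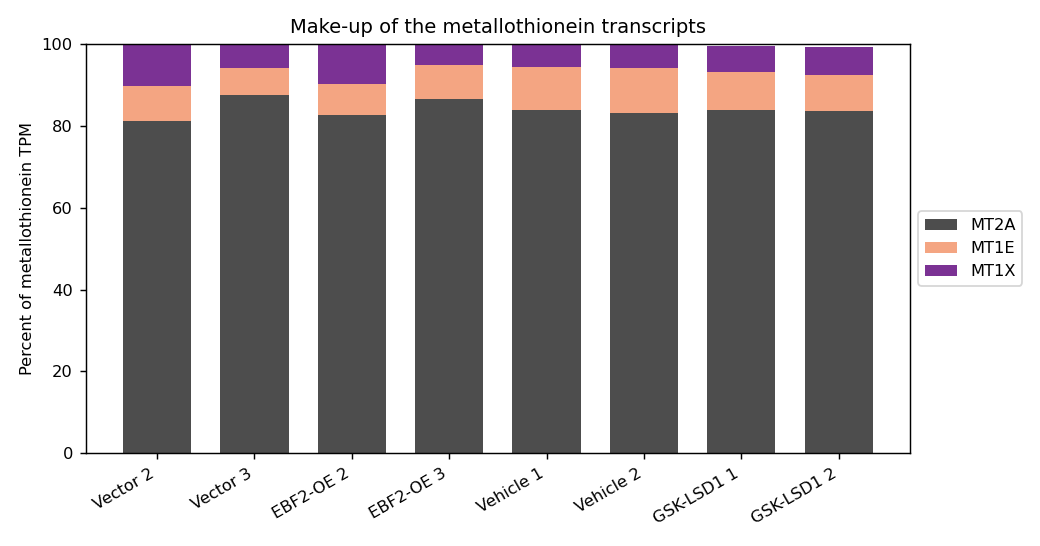
Share of MT2A, MT1E and MT1X in the summed TPM of the 8 metallothionein genes, in percent, for each library. MT1X takes 10.25% and 9.8% in Vector 2 and EBF2-OE 2 and between 5.07% and 6.92% in the other 6 libraries.

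The other MT1 genes were at or under the detection limit. MT1G and MT1H had 0 counts in all 8 libraries, which allows up to 0.951 and 0.982 TPM in the library with the highest limit (3 counts, counting error only). MT1M had 1 count in EBF2-OE 3 and 0 elsewhere, and MT1F had 0 to 3 counts. These 4 genes entered no comparison, and their absence from the counts says only that they were not detectable at this depth. Of 13 further metallothionein genes and pseudogenes, 8 were in the table and none reached the counts needed for a test. The highest was the pseudogene MT1JP, with 15 counts in Vehicle 2. Windows of 150 bases from the transcripts of 9 members were found in no other gene's transcripts in GENCODE release 44. For MT1X, 8.8% of windows were shared with 1 other annotated gene, whose reads could not be separated there.

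Levels in single libraries are given below in CPM (counts relative to the library total, scaled with TMM factors over all 8 libraries), the unit used to compare 1 gene between libraries. MT1X was at 42.2 CPM in Vector 2 and 44.7 CPM in EBF2-OE 2, but at 16.8 CPM in Vector 3 and 12.4 CPM in EBF2-OE 3. The libraries numbered 2 were thus high and those numbered 3 low in both groups, by 2.50-fold in Vector and 3.59-fold in EBF2-OE. Vehicle, at 14.9 and 17.2 CPM, and GSK-LSD1, at 19.8 and 21.4 CPM, lay near the low pair. MT1E showed the same order, with 64.7 and 62.6 CPM in the libraries numbered 2 and 36.4 and 36.7 CPM in those numbered 3, which is 1.78-fold in Vector and 1.71-fold in EBF2-OE. MT2A was at 332 and 375 CPM in the libraries numbered 2 and at 261 and 210 CPM in those numbered 3, which is 1.27-fold in Vector and 1.78-fold in EBF2-OE. Within Vehicle and within GSK-LSD1, these 3 genes differed by at most 0.21 on the log2 scale between libraries.

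Among 11323 genes with a mean of at least 5 CPM over the Vector and EBF2-OE libraries, 138 (1.22%) were more than 1.5-fold higher in number 2 than in number 3 in both groups, MT1E and MT1X among them, and 181 (1.6%) were more than 1.5-fold lower. Only 44 genes had a larger ratio than MT1X in Vector and 4 in EBF2-OE. The regulator and the exporter did not share the order. MTF1 was at 30.4 and 34.0 CPM in Vector 2 and 3 and at 31.7 and 30.1 CPM in EBF2-OE 2 and 3, a log2 ratio of -0.16 and 0.07. SLC30A1 was at 79.5 and 56.5 CPM in Vector and at 60.4 and 72.5 CPM in EBF2-OE, so that number 2 was higher in one group and lower in the other. At this level, none of 4 other zinc exporters, 11 zinc importers, 9 copper handling genes and 10 metal and oxidant stress genes was more than 1.5-fold higher or lower in number 2 in both groups. Short of that limit, HMOX1, GCLC, GCLM, SLC7A11, TXNRD1, SRXN1 and NQO1 were lower in number 2 in both. In Vector and EBF2-OE the log2 ratio was -0.428 and -0.582 for HMOX1 and -0.992 and -0.175 for SLC7A11. HSPA1A, HSPA1B and DNAJB1 were higher in Vector 2 and lower in EBF2-OE 2. Of 8 glucocorticoid-induced genes, KLF9 was more than 1.5-fold lower in number 2 in both, with log2 ratios of -1.02 and -0.85. Short of that limit, SGK1 (-0.994 and -0.575) and PER1 (-0.055 and -0.397) were also lower in number 2 in both. The remaining genes of this list had opposite signs in Vector and EBF2-OE. The pattern was chosen for description after the values were seen and was not tested.

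**Figure D3:**
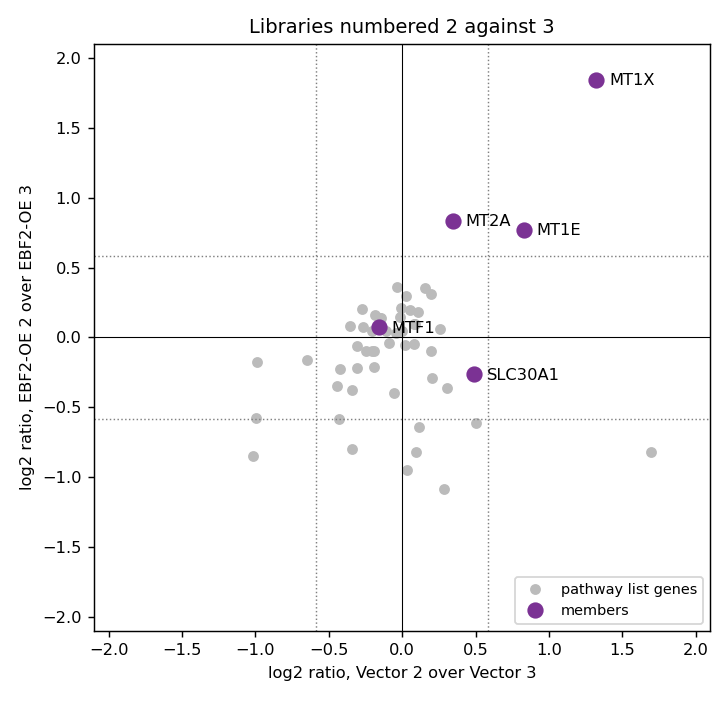
Log2 ratio of library 2 over library 3 in Vector (x axis) and in EBF2-OE (y axis) for 5 members and the genes of the pathway lists, with dotted lines at 1.5-fold. MT1X (1.32, 1.84) and MT1E (0.83, 0.77) lie beyond the lines in both groups, MTF1 and SLC30A1 do not.

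The share of MT1X relative to MT2A, which does not depend on the scaling of the libraries, separated the same libraries. It was 12.7 and 11.9 MT1X counts for each 100 MT2A counts in Vector 2 and EBF2-OE 2, and 6.44 and 5.90 in Vector 3 and EBF2-OE 3. Vehicle had 6.58 and 7.05 and GSK-LSD1 7.38 and 8.34. The corresponding numbers for MT1E did not separate the libraries numbered 2 from those numbered 3, at 19.5 and 16.7 against 13.9 and 17.5.

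**Figure D4:**
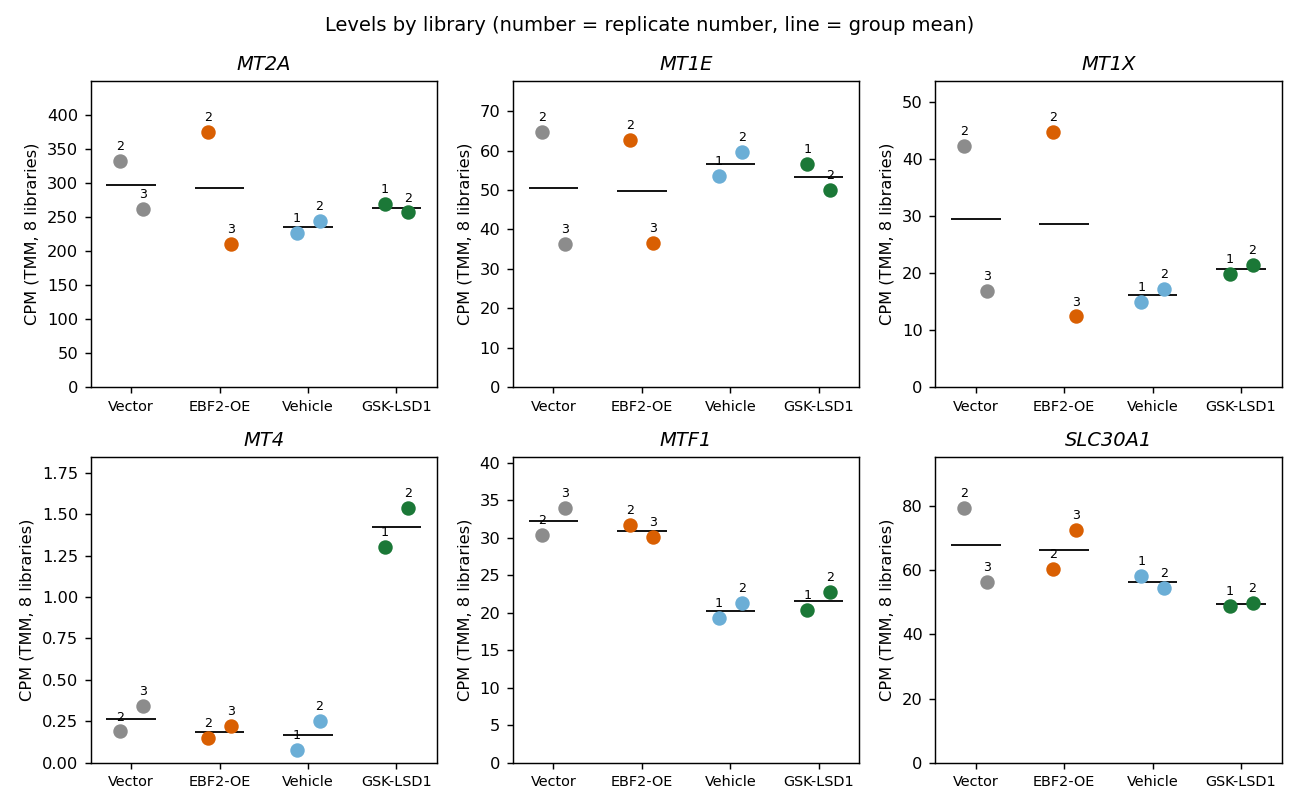
CPM of 6 members in each library, with the replicate number beside each point and a line at the mean of the 2 libraries of a group. Libraries 2 of Vector and EBF2-OE are high for MT1X, MT1E and MT2A, and both GSK-LSD1 libraries are above all others for MT4, at 1.30 and 1.54 CPM.

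The comparison of EBF2-OE with Vector asks whether overexpression of EBF2 changed these genes. None of the 5 tested members passed the test, and for each of them the libraries of EBF2-OE and Vector overlapped. The mean of MT2A was 292.2 ± 116.3 CPM (SD, n = 2) in EBF2-OE and 296.5 ± 49.84 CPM in Vector, and that of MT1X was 28.54 ± 22.85 and 29.52 ± 17.95 CPM. The log2 fold change was -0.02 for MT2A (95% interval -0.69 to 0.66), -0.05 for MT1X (-1.63 to 1.53), -0.03 for MT1E (-0.86 to 0.81), -0.05 for MTF1 (-0.39 to 0.28) and -0.03 for SLC30A1 (-0.52 to 0.46). The p of edgeR's quasi-likelihood test, adjusted by Benjamini-Hochberg over all genes, was 1 for each of the 5. The intervals leave room for changes of 2.88-fold upward in MT1X and 1.58-fold upward in MT2A, so that equal levels are not shown.

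The background is that edgeR called 0% of 15560 genes higher and 0% lower (fold change above 1.5, adjusted p under 0.05), EBF2 included, with 208 genes at an unadjusted p under 0.05, while DESeq2 called 6 genes higher and 1 lower. No member had an unadjusted p under 0.05, and DESeq2 called 0 members. None of the 5 members had both EBF2-OE libraries above both Vector libraries, which 11% of genes did, or below them, which 11.4% did. Compared number by number, EBF2-OE 2 over Vector 2 and EBF2-OE 3 over Vector 3 had opposite signs for all 5, for example 0.08 and -0.44 for MT1X and -0.40 and 0.36 for SLC30A1 on the log2 scale. MT4 had 3 and 5 counts in EBF2-OE and 4 and 8 in Vector, too few for a test. EBF2-OE 3, with the higher EBF2 count, had the lowest MT1X and MT2A of all libraries. Whether the amount of EBF2 played a part was not tested.

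The comparison of GSK-LSD1 with Vehicle addresses the inhibition of KDM1A. MT4 had 30 and 35 counts in GSK-LSD1 1 and 2 and 2 and 7 counts in Vehicle 1 and 2, or 1.30 and 1.54 CPM against 0.080 and 0.253 CPM. Both treated libraries were above both controls, and above the 4 libraries of Vector and EBF2-OE, which had 3 to 8 counts. The ratio of the summed counts, 65 against 9, was 8.30 after scaling for depth, with an exact 95% interval of 4.11 to 19.0 that covers counting error only. The fitted log2 fold change was 3.02 (SE 0.481). MT4 entered this fit only through its counts in GSK-LSD1, since both Vehicle libraries were under the filter of 10 counts. Without Vehicle 2 it was 4.06 and without Vehicle 1 it was 2.46, so the size of the fold rests on a few counts in the controls. In TPM, MT4 reached 12.18 and 14.78 after GSK-LSD1, which was still 0.6026% and 0.7443% of the metallothionein RNA.

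The call rule used in the other comparisons (fold change above 1.5, adjusted p under 0.05) was met upward by 2.53% of 16059 genes and by 1 of the 6 members, MT4, and downward by 2.04% of genes and by 0 members. Nothing is read from these member counts, since the values of MT4 were known when the genes were chosen, and MT4 did not meet the rule in 1 fit over all 8 libraries. MT1X was at 19.8 and 21.4 CPM after GSK-LSD1 and at 14.9 and 17.2 CPM in Vehicle, a log2 fold change of 0.36 (SE 0.104). MT2A was at 269 and 256 CPM against 227 and 244 CPM, a log2 fold change of 0.16 (SE 0.0548). For both genes the treated libraries were above both controls, but by less than the 1.5-fold limit. SLC30A1, the exporter, was at 48.9 and 49.9 CPM against 58.2 and 54.4 CPM, below both controls, with a log2 fold change of -0.19 (SE 0.0643). MT1E (56.6 and 49.95 against 53.6 and 59.6 CPM) and MTF1 (20.4 and 22.8 against 19.3 and 21.3 CPM) overlapped with their controls. Both libraries above both controls, as for 3 of the 6 members, was seen in 30.5% of genes, and both below, as for 1 of the 6, in 29.7%. The summed counts of the MT1 genes and MT2A differed by 0.12 on the log2 scale (SE 0.0553).

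**Figure D5:**
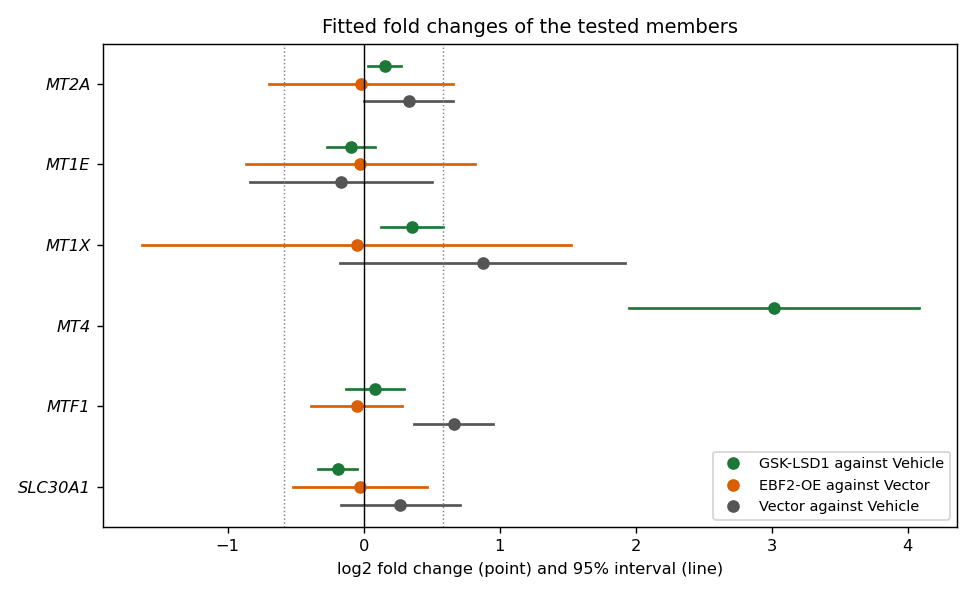
Log2 fold changes of the members kept in each fit, with their 95% intervals in 3 comparisons and dotted lines at 1.5-fold. For GSK-LSD1 against Vehicle the intervals are a description and no test, since the genes were chosen with earlier results known. MT4, at 3.02 in GSK-LSD1 against Vehicle, is far from the others, and the intervals of EBF2-OE against Vector are wide around 0.

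Other genes of metal handling moved by small amounts after GSK-LSD1. The lists were chosen with earlier results of these data known. Their counts and adjusted p-values, here and in the next paragraph, are therefore a description. HMOX1, SLC30A4, SLC31A1 and single markers were named after their values were seen. Of the 11 tested zinc importers (SLC39 family), 7 were higher with an adjusted p under 0.05 at any fold and 0 were lower, against 9.86% and 8.87% of all genes. Only SLC39A11 was also above 1.5-fold, with a log2 fold change of 0.61 (SE 0.112, adjusted p = 0.00417, edgeR, Benjamini-Hochberg over all genes). That call was lost without GSK-LSD1 2 (0.51) and in limma on log2 (CPM + 1) (0.56). Of the 10 metal and oxidant stress genes, 6 were higher at any fold and 0 lower. SLC7A11, which imports cystine for glutathione synthesis, rose by 0.74 on the log2 scale (SE 0.0627, adjusted p = 3.81e-05, same test), and HMOX1, the inducible heme oxygenase, was higher by 0.58 (SE 0.0724, adjusted p = 4.67e-04, same test), just under 1.5-fold. Without Vehicle 2, and without GSK-LSD1 1, HMOX1 was called as well, so that 2 of the stress genes were. The median log2 fold change was 0.17 over the importers and 0.26 over the stress genes, against -0.006 over all genes. Between the untreated controls, Vector against Vehicle, these medians were 0.45 and 0.29, against 0.002 over all genes. That comparison uses the same Vehicle libraries. A shift of this kind was thus not particular to GSK-LSD1. Cell type markers moved in the same comparison. KRT8 and KRT18 had log2 fold changes of -0.30 and -0.45 (adjusted p = 2.51e-04 and 4.11e-05, edgeR, Benjamini-Hochberg over all genes). The other 2 tested ductal markers, CDH1 and MUC1, were at 0.20 and 0.16 (adjusted p = 0.629 and 0.261, same test), so the ductal list had no common direction. COL1A1, COL1A2 and CD68 were higher by 0.26, 0.52 and 0.55 (adjusted p = 0.013, 0.00664 and 0.0117, same test), and 4 of the 4 fibroblast markers lay above both controls. The fibroblast markers summed to 46.2 to 48.8 TPM after GSK-LSD1 and 38.0 to 40.2 TPM in Vehicle, and DCN and LUM stayed at no more than 1.11 TPM in any library. The part of these markers in the list values and in the member values was not tested.

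The 6 tested zinc exporters other than SLC30A1 gave 0 calls in edgeR and in DESeq2, with 1 at an unadjusted p under 0.05, against 32.7% of all genes. That gene, SLC30A4, was at -0.61 on the log2 scale (SE 0.196, adjusted p = 0.0549, edgeR, Benjamini-Hochberg over all genes) and was called lower without Vehicle 2 (-0.69) and with no low-count filter. The 9 copper handling genes also gave 0 calls in both, with 5 at an unadjusted p under 0.05. Of these, SLC31A1, the copper importer, was higher by 0.52 (SE 0.069, adjusted p = 6.38e-04, edgeR, Benjamini-Hochberg over all genes). Among 8 tested glucocorticoid-induced genes, CEBPD, a transcription factor, was the 1 called and fell by 0.79 on the log2 scale (SE 0.163, adjusted p = 0.00781, same test). The call of CEBPD was lost without Vehicle 1, without GSK-LSD1 1 and without GSK-LSD1 2, and in DESeq2. Among 9 genes flanking the metallothionein locus, SLC12A3, a sodium chloride cotransporter, was the 1 called and fell by 0.59 (SE 0.107, adjusted p = 0.00381, same test), a call that was lost without GSK-LSD1 2 (-0.53) and in limma on log2 (CPM + 1) (-0.55). In 1 fit over all 8 libraries, none of these list genes was called. In EBF2-OE against Vector none of the genes of these lists was called by edgeR or DESeq2. Cell type markers aside, none had an unadjusted p under 0.05, as 1.34% of all genes did. Of the markers, KRT8 and KRT18 were higher by 0.381 and 0.38 (unadjusted p = 0.0171 and 0.0255, edgeR), above both Vector libraries and opposite to their direction after GSK-LSD1. CDH1 and MUC1 were at -0.58 and 0.14 and overlapped with Vector. The heat shock genes HSPA1A and HSPA1B, near-identical copies whose reads may be split between them, had log2 fold changes of 0.67 (SE 0.299) and 0.72 (SE 0.346) and were called higher with no low-count filter.

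Vector and Vehicle are both controls, and their comparison shows how far the members differed without overexpression or inhibitor. It uses the control libraries of both comparisons above. MTF1, the zinc-sensing regulator, was higher in Vector, at 30.4 and 34.0 CPM against 19.3 and 21.3 CPM in Vehicle, with no overlap. Its log2 fold change was 0.66 (SE 0.116, 95% interval 0.37 to 0.95, adjusted p = 0.0165, edgeR, Benjamini-Hochberg over all genes). The EBF2-OE libraries, at 31.7 and 30.1 CPM, were near Vector, and the GSK-LSD1 libraries, at 20.4 and 22.8 CPM, were near Vehicle. MTF1 was thus the 1 of 5 tested members called higher, against 5.79% of 16019 genes, and 0 were called lower, against 10.2%. The call was lost without Vector 3, where the log2 fold change was 0.58 and just under the fold limit, without Vehicle 1 (0.59) and without Vehicle 2 (0.74). Over all genes, 0 were called without Vehicle 1, and 2 were called higher and 24 lower without Vehicle 2.

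MT2A was also above both Vehicle libraries in both Vector libraries (332 and 261 against 227 and 244 CPM), with a log2 fold change of 0.33 (SE 0.131, adjusted p = 0.111, same test by edgeR). Such an order was found in 35.7% of genes, and the opposite, found for 0 of the 5 members, in 35%. MT1X had the largest estimate of the 5, 0.88 (SE 0.419, adjusted p = 0.169, same test by edgeR), which was 0.05 without Vector 2 and 1.40 without Vector 3, when it was called. MT1E, at -0.17 (SE 0.269, adjusted p = 0.668, same test by edgeR), was called lower without Vector 2, at -0.65. SLC30A1 gave 0.27 (SE 0.176, adjusted p = 0.288, same test by edgeR). KDM1A, the target of GSK-LSD1, was at 188 and 192 CPM in Vector and at 264 and 229 CPM in Vehicle. The ductal epithelial markers summed to 3872 to 4116 TPM in Vector and to 6328 to 6444 TPM in Vehicle, against 4820 to 4901 TPM in GSK-LSD1 and 4631 to 5490 TPM in EBF2-OE. In Vector against Vehicle the log2 fold change was -0.49 for KRT8, -0.99 for KRT18, -0.96 for CDH1 and 0.10 for MUC1. The part of these markers in the values of the members was not tested. The kind of control and any batch cannot be told apart, since the labels give no batch.

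The genes whose levels followed a member most closely were ranked by Pearson's r of log2 (CPM + 1) over the 8 libraries, among 11476 genes with a mean of at least 5 CPM. For MT2A these were LIF (r = 0.986), a cytokine of the interleukin 6 family, ESCO1 (0.985), ORC2 (0.984), POLR1B (0.972) and YES1 (0.969). LIF was at 35.88 and 26.51 CPM in Vector 2 and 3, 36.75 and 19.89 CPM in EBF2-OE 2 and 3, 21.71 and 24.15 CPM in Vehicle, and 27.56 and 24.65 CPM in GSK-LSD1, in the same order as MT2A in all 8 libraries. For MT1X they were PLIN2 (0.989), a lipid droplet coat protein, PPP1R3B (0.988), PLAUR (0.978), the urokinase receptor, SEMA4B (0.977) and BET1L (0.977). Without EBF2-OE 2 and Vector 2, the libraries farthest from the median, r was 0.827 (YES1) to 0.988 (LIF) for the genes named with MT2A and 0.802 (SEMA4B) to 0.942 (PLIN2) for those named with MT1X.

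For SLC30A1 the closest genes were others: SLC16A3 (0.966), a lactate exporter, RELL1 (0.957), DPF1 (0.95), SERPINH1 (0.945) and RELT (0.943). SLC16A3 was at 913.4 and 681.4 CPM in Vector 2 and 3 and at 775.3 and 829.8 CPM in EBF2-OE 2 and 3, high and low in the same libraries as SLC30A1. Without Vector 2 and EBF2-OE 3, the libraries farthest from its median, r was 0.672 (RELT) to 0.875 (RELL1). These coefficients describe 8 libraries in 4 groups, of which pairs share a treatment, and the genes were picked as the highest among those 11476.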

How the data were processed

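Reads of oligo(dT)-enriched RNA were taken at both fragment ends. The paper names HISAT2 with hg38 and HTSeq for counts per gene (versions and strand setting not given in the sources used here). The authors deposited raw counts, gene lengths and TPM for 38637 genes. TPM was checked to be the count per listed length rescaled to the library. The members and gene lists were chosen with earlier results of these data known. All 10 members are named, with list genes called in a comparison (at most 5 a list) and the 5 genes most alike to MT2A, MT1X and SLC30A1. SLC30A4, SLC31A1, HMOX1, GCLC, GCLM, TXNRD1, SRXN1, NQO1, HSPA1A, HSPA1B, DNAJB1, KLF9, SGK1, PER1, MT1JP, KDM1A and single markers were named after their values were seen. The same holds for the ratios of libraries 2 and 3.

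Each comparison was fitted on its own 4 libraries with the quasi-likelihood functions of edgeR (version 4.0.16, R 4.3.3), two-sided, using TMM factors and genes kept by filterByExpr at 10 counts. P was adjusted by Benjamini-Hochberg over every gene in the fit, and a call needed both more than 1.5-fold and an adjusted p under 0.05. Total counts ran from 20453362 to 27054876. Alternatives were DESeq2 1.42.0 and its size factors, other filters, 1 fit over 8 libraries, limma 3.58.1 on log2 (CPM + 1) or log2 (CPM + 0.1), a replicate block, the MT1 genes and MT2A as 1 unit, unadjusted p, no fold limit, and leaving out each library. A lone library left in a group is then assumed to vary like the other group. The main edgeR fit, DESeq2 and limma on log2 (CPM + 1) were tested on simulated data, and the other alternatives were not. Promoters came from a RefSeq table of GRCh38.p14, checked against hg38, and Python 3.11.15 with matplotlib 3.10.9 drew the figures. Intervals of counts cover counting error only.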

Additional observations from a re-analysis of the deposited data

How the results depend on the processing

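Outside the leave-one-out fits, 57 of 59 member fold changes in GSK-LSD1 against Vehicle, 50 of 50 in EBF2-OE against Vector and 44 of 45 in Vector against Vehicle kept their direction and their side of the call. In GSK-LSD1 against Vehicle, where the members carry no test and their counts are a description, 1 member met the call rule upward, against 2.53% of genes. In 1 fit over all 8 libraries 0 members did, which left out MT4 at a log2 fold change of 3.02, against 85 of 16558 genes. With no fold limit 2 members did, which added MT1X, against 9.86% of genes. DESeq2 gave MT4 no adjusted p (NA), so its count was not compared. In Vector against Vehicle, 1 member was called higher, against 927 of 16019 genes. With no low-count filter 2 members were, which added MT1X at 0.87, against 1177 of 25399 genes. Leaving out each library in turn gave 0 to 1 members called higher and 0 to 1 called lower. The cause of these differences was not tested.

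Leaving out libraries reversed the sign of 9 of 20 values in EBF2-OE against Vector. For MT1E the log2 fold changes were then -0.45 without EBF2-OE 2, 0.47 without Vector 2 and 0.31 without EBF2-OE 3. In the same fits, in this order, they were -1.24, 0.78 and 0.59 for MT1X and -0.48, 0.18 and 0.34 for MT2A. They ran from -0.114 (without Vector 2) to 0.021 (without Vector 3) for MTF1 and from -0.26 (without Vector 3) to 0.26 (without Vector 2) for SLC30A1, with 0.11 without EBF2-OE 2. In Vector against Vehicle, MT1E ran from -0.65 (without Vector 2) to 0.20 (without Vector 3) and SLC30A1 from -0.007 (without Vector 2) to 0.50 (without Vector 3). None of the reversed values was called.

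With the replicate block, 0 members were called in EBF2-OE against Vector, as without it, and MT1X was at -0.16. In GSK-LSD1 against Vehicle the block gave 3.04 for MT4, as a description. Deviations of same-numbered libraries correlated over genes at -0.045 in GSK-LSD1 against Vehicle and at 0.347 in EBF2-OE against Vector. The labels give the numbers no meaning, and whether they pair libraries was not tested. Groups of 2 libraries and the low counts of MT4 limit the precision.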

Other observations

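Some genes of metal handling that are no members also differed between the Vector and Vehicle controls. In this comparison 5.79% of 16019 genes were called higher and 10.2% lower. The lists were chosen with earlier results of these data known, and nothing is read from their counts of calls, here or in the next paragraph. Of the 9 copper handling genes, SLC31A1, the copper importer, was higher in Vector by 1.05 on the log2 scale (SE 0.0952, adjusted p = 0.00693) and ATP7A, a copper-transporting ATPase, by 0.70 (SE 0.114, adjusted p = 0.0146), both by edgeR with Benjamini-Hochberg adjustment, and 0 were lower. HMOX1 (1.39) and SLC7A11 (1.79) were the 2 of 10 metal and oxidant stress genes called higher. SLC30A7, a zinc exporter of the Golgi, was the 1 of 6 tested exporters called (0.69), and SLC39A14 the 1 of 11 tested importers (0.69). Among 8 tested glucocorticoid-induced genes, ERRFI1 (1.51) and PER1 (0.71) were called higher and CEBPD (-2.20) and TSC22D3 (-0.96) lower, so that the list had no common direction.

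Of 8 tested genes flanking the metallothionein locus, OGFOD1 (0.73) and HERPUD1 (0.74) were called higher and BBS2 (-0.85) and SLC12A3 (-1.28) lower in Vector. Without Vehicle 1 or without Vehicle 2, none of the genes of these lists was called. Without Vector 2, 3 importers, 4 stress genes and 4 glucocorticoid-induced genes were called higher, and 1 exporter, SLC30A4, lower. Without Vector 3, 2 importers were called higher and SLC30A7 and HERPUD1 were not called. Of the marker lists, KRT18 (-0.99), VWF (-2.38) and CDH5 (-3.09) were called lower and CD68 (0.96) higher in Vector, and CDH5 (-0.97) was the 1 marker called in GSK-LSD1 against Vehicle, lower. Their part in the levels of the members was not tested.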
